A study of Mus musculus with 8 samples.

Results

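The genes described here are the MAP kinase phosphatases *Dusp1*, *Dusp4*, *Dusp5*, *Dusp6* and *Dusp14*, the Sprouty genes *Spry1*, *Spry2* and *Spry4*, and the Sprouty-related genes *Spred1* and *Spred2*. These 10 genes were taken by name from the 45706 genes in the deposited tables, and all 10 were among the 17495 genes with enough reads to be tested. Ribosome-associated mRNA was purified from PV+ interneurons in the primary somatosensory cortex (S1) of PvalbFlp/+;Neurod6Cre/+ mice, aged P42 to P70 according to the sample labels. Every mouse in both groups carried an AAV injected at P1, flox-fdio in design, which encodes the ribosomal protein HA-RPL10a for the purification and, after a self-cleaving peptide, myc-hM3Dq, a designed receptor that raises neuronal activity when it binds clozapine-N-oxide (CNO). The neuronal hSyn promoter drives the construct, Flp expressed from *Pvalb* switches it on, and Cre expressed from *Neurod6* removes it from pyramidal cells that have expressed *Pvalb*. The CNO-treated group received 1 mg/kg CNO in 5 injections over about 48 h and the vehicle-treated group received vehicle on the same schedule. Each group had 4 samples, and each sample pooled S1 tissue from 4 brains, so the p-values below measure the spread between pools. Mice given CNO without hM3Dq were not analysed here, and an action of CNO by itself cannot be told apart from that of the receptor. Counted reads per sample ranged from 44064161 to 49413273, at which 3 counts equal 0.0607 to 0.0681 CPM (counts scaled to the library total), counting error only.

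ERK, JNK and p38 are MAP kinases, which carry signals from growth factor receptors, neurotransmitter receptors and calcium entry to the nucleus. Dual-specificity phosphatases (DUSPs) remove phosphate from both activating residues of a MAP kinase. Sprouty and Spred proteins act earlier, between receptor tyrosine kinases, Ras and Raf, and many of these inhibitors are themselves transcribed in response to the pathway they restrain. In neurons, *Dusp1* is known as an immediate early gene whose transcription follows electrical activity.

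The sequence before the RefSeq start of the gene is shown for *Dusp1*, which had the largest difference between the groups among the 10 genes, and for the phosphatases *Dusp5* and *Dusp6*, which had small ones. All are from the RefSeq promoter table (assembly GRCm38.p6), read 5′ to 3′ on the strand of the gene and ended before an annotated exon. For *Dusp1* that exon is not the first one of every transcript. The *Dusp1* sequence is chr17:26508520-26508722 on the minus strand, the *Dusp5* sequence is chr19:53528895-53529108 on the plus strand and the *Dusp6* sequence is chr10:99262981-99263230 on the plus strand. The RefSeq start of *Dusp1* is base 26508472, and 4 of its 6 GENCODE transcripts start downstream of the sequence shown, whereas 2 start farther upstream, up to base 26562128. Capitals mark TGACGTCA, the cAMP response element (CRE) bound by CREB, its shorter form TGACG on either strand, and the CArG box bound by serum response factor.
Dusp1: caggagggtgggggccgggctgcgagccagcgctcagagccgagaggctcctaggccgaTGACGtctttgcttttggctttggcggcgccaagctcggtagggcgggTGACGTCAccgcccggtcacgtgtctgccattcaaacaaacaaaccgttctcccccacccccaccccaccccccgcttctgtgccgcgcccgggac
Dusp5: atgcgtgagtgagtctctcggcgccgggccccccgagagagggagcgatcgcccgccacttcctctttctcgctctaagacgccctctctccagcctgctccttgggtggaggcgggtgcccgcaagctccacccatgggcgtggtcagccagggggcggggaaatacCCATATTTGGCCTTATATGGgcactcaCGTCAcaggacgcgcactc
Dusp6: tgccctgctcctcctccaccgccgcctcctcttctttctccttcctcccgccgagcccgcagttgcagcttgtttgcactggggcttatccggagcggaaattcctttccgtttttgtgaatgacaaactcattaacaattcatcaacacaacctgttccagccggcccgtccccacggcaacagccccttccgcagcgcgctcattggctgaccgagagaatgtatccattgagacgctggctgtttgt
The *Dusp1* promoter held a full TGACGTCA from base -143 to base -136 and a further TGACG from base -191 to base -187, counted from the RefSeq start. The *Dusp5* promoter held adjoining CArG boxes from base -82 to base -73 and from base -72 to base -63, and a TGACG on the opposite strand from base -55 to base -51. The *Dusp6* sequence held no match to these motifs. Promoters of 300 bases, from 250 before to 50 after the start, were found for 8 of the 10 genes and searched on both strands. None was found for *Dusp4* and *Spry4*, so it is unknown whether their promoters hold these motifs. TGACGTCA was present in 1 of the 8 (*Dusp1*) and in 1.79% of all 32851 promoters of the table. TGACG, which is also part of TGACGTCA, was present in 3 of the 8 (*Dusp1*, *Dusp5* and *Spred2*) and in 20.8% of all. The CArG box was present in 1 of the 8 (*Dusp5*) and in 1.63% of all. The AP-1 motif TGANTCA (7.81% of all promoters) and the Egr1 motif GCGTGGGCG (0.612%) were present in 0 of the 8. These matches describe the letters in the window and say nothing about binding.

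Markers of the labelled cell type and of its neighbours were read first, because 1 sample stood apart. Levels are given as TPM, in which reads are corrected for transcript length and for the library total. The 9 markers of PV+ interneurons, led by *Gad1*, summed to 3444, 2474, 3002 and 3884.5 TPM in CNO replicates 1 to 4 and to 1173, 2836, 3084 and 2898 TPM in vehicle replicates 1 to 4. Vehicle replicate 1 was therefore far below the other 7 samples. The 9 pyramidal cell markers, led by *Slc17a7*, summed to 696, 883, 786 and 646 TPM with CNO and to 1014, 873, 823 and 896 TPM with vehicle, so pyramidal cell transcripts were also present in every sample and were highest in vehicle replicate 1. A two-sided exact permutation test of 4 against 4 samples gave p = 0.286 for the PV+ interneuron sum and p = 0.0857 for the pyramidal cell sum. All 9 PV+ interneuron markers had log2 fold changes above 0 and 1 of them, *Gad2*, had an unadjusted p under 0.05. All 9 pyramidal cell markers had log2 fold changes below 0, none of them at that threshold. Of the markers of other cells, 6 of other interneurons summed to 647 ± 39.2 TPM with CNO and 732 ± 50.3 with vehicle (SD, n = 4), with *Lamp5* the most abundant. The sums were 186 ± 39.8 and 214 ± 25.9 TPM for 5 astrocyte markers (led by *Slc1a3*), and 572 ± 173 and 659 ± 63.0 TPM for 7 oligodendrocyte lineage markers. They were 47.2 ± 10.7 and 60.1 ± 11.4 TPM for 6 microglia markers (led by *P2ry12*). For 5 endothelial cell markers (led by *Cldn5*) the sums were 46.7 ± 18.1 and 40.4 ± 7.25 TPM, and for 4 mural cell markers (led by *Acta2*) 41.5 ± 18.1 and 38.5 ± 12.2 TPM. Of these other markers, *Lamp5* was lower in every CNO sample than in any vehicle sample (log2 fold change -0.37, unadjusted p = 0.0139 in edgeR) and *P2ry12* was lower with overlapping groups (-0.38, unadjusted p = 0.0440), each with an adjusted p of 0.817. The estimates were below 0 for all 7 oligodendrocyte lineage markers, all 6 microglia markers, 4 of 5 astrocyte markers, 3 of 6 markers of other interneurons and 1 of 4 mural cell markers, and above 0 for all 5 endothelial cell markers. The part of these cells in the results below was not tested. No marker of any list was at 0 in every sample. The mean log2 CPM of the PV+ interneuron markers minus that of the pyramidal cell markers, used below as a marker index, was 2.00, 1.26, 1.83 and 2.47 in the CNO samples and 0.074, 1.41, 1.87 and 1.66 in the vehicle samples. In such bulk samples, fewer cells of a type and less RNA per cell cannot be told apart.

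Comparing CNO with vehicle asks which of the feedback inhibitors differed in PV+ interneurons whose activity had been raised for about 48 h. *Dusp1* was 2.25-fold higher with CNO and *Spry4* 1.64-fold higher, whereas *Dusp4*, *Dusp5* and *Spry2* had estimates between 1.19 and 1.23-fold and the other 5 genes lay between 0.912 and 1.07-fold. A gene was called where its adjusted p was under 0.05, its fold change over 1.5 in either direction and its TPM over 1 on average. By these cut-offs, edgeR's quasi-likelihood test with Benjamini-Hochberg adjustment over all tested genes called 0 of the 10 and 0 genes in all (0.00%). With the same cut-offs, edgeR's likelihood ratio test with robust dispersion called 12 genes (0.0686% of those tested) and DESeq2's Wald test 10 (0.0572%). *Dusp1* was among the calls of both, and none of the other 9 genes was. At an unadjusted p under 0.05 in the quasi-likelihood test, 716 genes passed (4.09%), 252 higher (1.44%) and 464 lower, and with scaling by library size alone 129 were higher and 736 lower. Of the 10 genes 2 passed, *Dusp1* and *Spry4*, both higher. In 423 of the tested genes (2.42%) the groups were separate in normalized CPM, and in 138 (0.789%) all CNO samples were the higher ones. Of the 10 genes this held for 1, *Dusp1*. The median log2 fold change was 0.18 over the 10 genes, 0.10 over the 9 without *Dusp1* and 0.0014 over all genes tested. The estimate was above 0 in 9 of the 10 and in 50.4% of all tested genes. On log2(TPM + 1) *Dusp14*, *Spry1* and *Spred1* lay below 0, where the median of all genes was itself -0.063 and the 3 genes lay above it. With the marker index as a covariate *Spred1* (-0.064) and *Spred2* (-0.036) lay below 0 and below the median of all genes (-0.015). In that fit *Dusp6* lay above 0 (0.032), and these signs also turned with 1 surrogate variable. The genes were chosen with earlier results of these data known, so these counts are a description of the list.

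**Figure D1:**
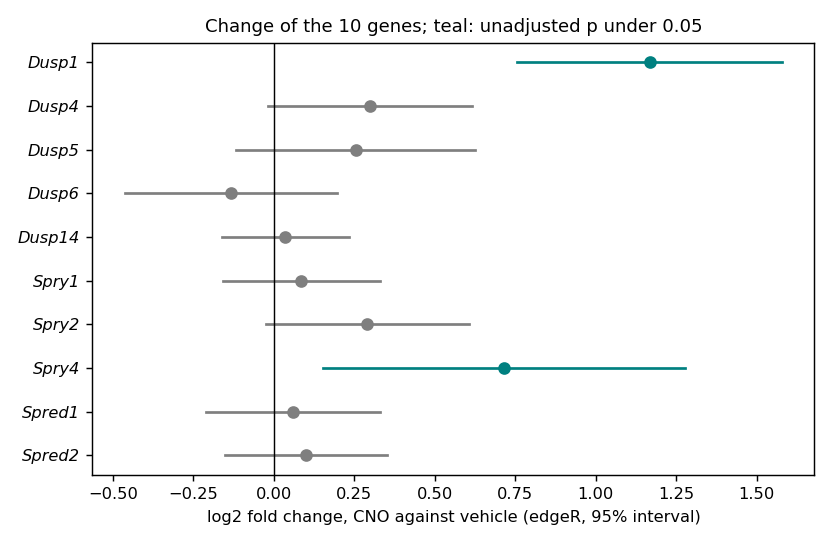
Log2 fold change of each of the 10 genes, CNO against vehicle, from edgeR's quasi-likelihood fit (points) with a 95% confidence interval derived from its test statistic (bars), and teal where the unadjusted p was under 0.05. The intervals of *Dusp1* (0.76 to 1.58) and *Spry4* (0.15 to 1.28) lie above 0 and those of the other 8 genes cross it.

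*Dusp1* (ENSMUSG00000024190) encodes a nuclear phosphatase that acts on ERK, JNK and p38. It is a protein-coding gene on chromosome 17 of GRCm38 from 26505590 to 26562128, minus strand. Its level was 109, 126, 112 and 163 TPM in CNO replicates 1 to 4. In vehicle replicates 1 to 4 it was 47.8, 61.3, 71.0 and 65.3 TPM. Every CNO sample exceeded every vehicle sample, CNO replicate 4 was the highest and vehicle replicate 1 the lowest. In TMM-normalized CPM, the scale on which the groups were compared, *Dusp1* had 106 ± 24.7 with CNO and 47.2 ± 10.1 with vehicle (SD, n = 4), from 1512 to 6791 counts per sample. The log2 fold change was 1.17 (standard error 0.19, 95% interval 0.76 to 1.58), the fourth smallest p of all genes tested. The adjusted p was 0.239 from the quasi-likelihood test, 2.62e-07 with robust dispersion and the likelihood ratio test, and 1.03e-05 from DESeq2's Wald test. A two-sided exact permutation test of log2 CPM gave p = 0.0286, the smallest that 4 against 4 samples allow. *Dusp1* overlaps 4 other annotated genes, 2 of them on the opposite strand, but 0% of the 31-nucleotide stretches of its transcripts occur in transcripts of other genes. The library kit does not keep strand, so reads of overlapping genes on opposite strands cannot be separated by strand.

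The size of the *Dusp1* difference moved with the marker index and with the samples used, and its direction did not. With the marker index as a covariate the log2 fold change was 0.92 ± 0.11 (standard error), with an adjusted p of 0.0715 in the quasi-likelihood test, and with 1 surrogate variable it was 0.93 (adjusted p = 0.0395). Without vehicle replicate 1 it was 1.03 (adjusted p = 0.232) and without CNO replicate 4 it was 0.99 (adjusted p = 0.238). Without both of these samples, an alternative added after seeing the data, it was 0.86 (standard error 0.099, adjusted p = 0.105). Every CNO sample exceeded every vehicle sample, so leaving samples out cannot make the groups overlap and is a weak check of direction. The quasi-likelihood test thus passed 0.05 with the surrogate variable, and also without a filter on low counts (1.18, adjusted p = 0.0251).

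**Figure D2:**
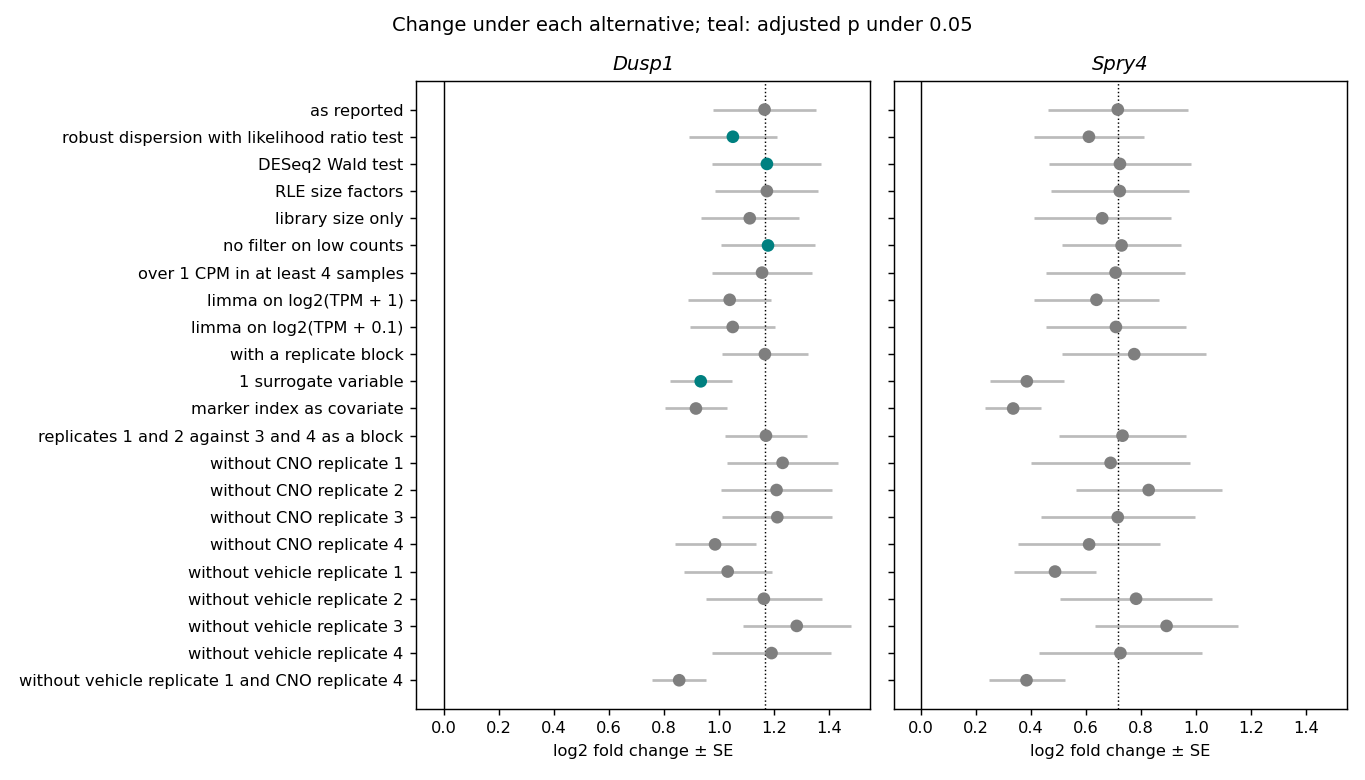
Log2 fold change of *Dusp1* (left) and *Spry4* (right) with its standard error, as reported and under each alternative, with an adjusted p under 0.05 in teal. *Dusp1* stays between 0.86 and 1.28 and *Spry4* between 0.33 and 0.89, with the low values under the marker index, the surrogate variable and the omission of vehicle replicate 1 with CNO replicate 4.

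Among the other phosphatases, *Dusp4* (ENSMUSG00000031530; chromosome 8, 34807297 to 34819894, plus strand) encodes a nuclear phosphatase that is inducible like *Dusp1*. Its level was 4.36, 5.14, 5.33 and 5.85 TPM in CNO replicates 1 to 4 and 4.02, 4.60, 4.38 and 4.65 TPM in vehicle replicates 1 to 4. On this scale CNO replicates 2, 3 and 4 exceeded every vehicle sample and CNO replicate 1 lay within the vehicle range. The log2 fold change was 0.30 (standard error 0.14, 95% interval -0.02 to 0.62, unadjusted p = 0.0627 in edgeR), and the exact permutation p was 0.0857. The DESeq2 test gave an unadjusted p of 0.0476 and an adjusted p of 0.842. The estimate was 0.18 with the marker index as a covariate, 0.17 with 1 surrogate variable and 0.14 without vehicle replicate 1 and CNO replicate 4. *Dusp5* (ENSMUSG00000034765; chromosome 19, 53529109 to 53542431, plus strand) encodes a nuclear phosphatase specific for ERK. It ranged from 8.86 to 11.99 TPM with CNO and from 6.16 to 10.4 TPM with vehicle, and the estimated log2 difference was 0.25 (standard error 0.17, exact permutation p = 0.171), or 0.12 without vehicle replicate 4 and 0.39 without vehicle replicate 3. An antisense gene, AC137853.2, shares 21.2% of the 31-nucleotide stretches of *Dusp5*, so its counts are uncertain.

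*Dusp6* (ENSMUSG00000019960; chromosome 10, 99263231 to 99267489, plus strand) encodes a cytoplasmic phosphatase specific for ERK that is widely read as a marker of ERK signalling. It had 29.8, 46.9, 39.8 and 36.0 TPM in CNO replicates 1 to 4 and 54.2, 49.5, 34.3 and 37.6 TPM in vehicle replicates 1 to 4. The vehicle samples spanned most of the range on their own, with replicates 1 and 2 high and replicates 3 and 4 low. The log2 fold change was -0.13 (standard error 0.15, 95% interval -0.46 to 0.20, exact permutation p = 0.514), between -0.21 and -0.036 with a sample left out, and it turned to 0.032 with the marker index in the model. *Dusp14* (ENSMUSG00000018648; chromosome 11, 84048041 to 84069261, minus strand) encodes a small phosphatase without the MAP kinase docking domain of the others. It ranged from 87.6 to 97.6 TPM with CNO and from 83.4 to 104 TPM with vehicle. Its log2 fold change of 0.03 had the narrowest interval of the 10 genes (-0.16 to 0.23), and with library size scaling (-0.020) and on log2(TPM + 1) (-0.041) it lay below 0 but above the medians of all genes in those settings (-0.051 and -0.063). Without vehicle replicate 4 it was -0.024, below the median of all genes in that fit (0.0073).

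**Figure D3:**
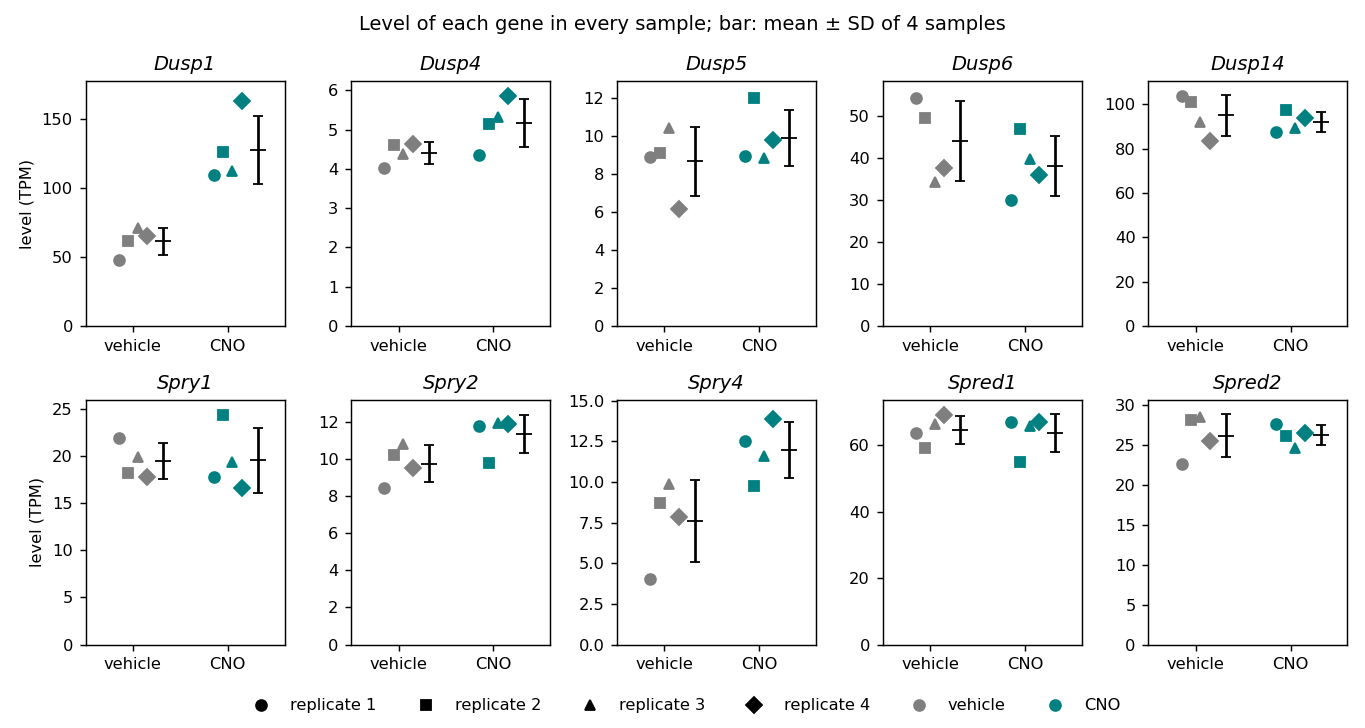
Level of each of the 10 genes in TPM in every vehicle (grey) and CNO (teal) sample, with the marker shape giving the replicate number and the bar the mean ± SD of 4 samples. The *Dusp1* samples fall into separate ranges (47.8 to 71.0 and 109 to 163 TPM), whereas the groups overlap in the other 9 genes.

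Among the Sprouty genes, *Spry4* (ENSMUSG00000024427; chromosome 18, 38586247 to 38601415, minus strand) encodes an inhibitor of receptor tyrosine kinase signalling to Ras and Raf. Its level was 12.5, 9.77, 11.6 and 13.9 TPM in CNO replicates 1 to 4. In vehicle replicates 1 to 4 it was 4.03, 8.69, 9.86 and 7.83 TPM. The groups overlapped because CNO replicate 2 lay just below vehicle replicate 3, and vehicle replicate 1 was far below the rest. In normalized CPM the means were 25.0 ± 4.70 with CNO and 15.2 ± 5.50 with vehicle (SD, n = 4). The log2 fold change was 0.71 (standard error 0.25, unadjusted p = 0.0174 and adjusted p = 0.817 in edgeR's quasi-likelihood test), with an adjusted p of 0.591 with robust dispersion and 0.842 in DESeq2. The exact permutation p was 0.0571. Without vehicle replicate 1 the log2 fold change was 0.49, with the marker index as a covariate 0.33 (standard error 0.10) and without vehicle replicate 1 and CNO replicate 4 it was 0.38. *Spry4* thus stayed above 0 in each of these fits, at a smaller size.

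*Spry2* (ENSMUSG00000022114; chromosome 14, 105891947 to 105896819, minus strand), another inhibitor of the same step, had 11.8, 9.80, 11.9 and 11.9 TPM in CNO replicates 1 to 4 and 8.44, 10.2, 10.8 and 9.51 TPM in vehicle replicates 1 to 4. Here 3 of the 4 CNO samples exceeded all vehicle samples, and CNO replicate 2 was the exception as it was for *Spry4*. The log2 fold change was 0.29 (standard error 0.14, 95% interval -0.03 to 0.61, unadjusted p = 0.0681 in edgeR and 0.0497 in DESeq2, exact permutation p = 0.0857). It was 0.12 with the marker index as a covariate. *Spry1* (ENSMUSG00000037211; chromosome 3, 37639947 to 37644598, plus strand) ranged from 16.6 to 24.3 TPM with CNO and from 17.7 to 21.9 TPM with vehicle. The estimated log2 difference was 0.09 (standard error 0.11, 95% interval -0.16 to 0.33), it was 0.00058 without CNO replicate 2, and it was -0.0032 on log2(TPM + 1), above the median of all genes on that scale (-0.063). The gene Gm42922 on the opposite strand shares 23.1% of the 31-nucleotide stretches of *Spry1*, so its counts are uncertain.

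The Spred proteins bind Ras and recruit neurofibromin, the Ras inactivator encoded by *Nf1*, to the membrane. *Spred1* (ENSMUSG00000027351; chromosome 2, 117121374 to 117182279, plus strand) ranged from 54.9 to 66.9 TPM with CNO and from 59.1 to 68.9 TPM with vehicle, and its log2 fold change was 0.06 (standard error 0.12, 95% interval -0.21 to 0.33). *Spred2* (ENSMUSG00000045671; chromosome 11, 19924375 to 20024026, plus strand) ranged from 24.6 to 27.6 TPM with CNO and from 22.6 to 28.4 TPM with vehicle, and its log2 fold change was 0.10 (standard error 0.11, 95% interval -0.15 to 0.35). With a sample left out, *Spred1* lay between 0.0062 and 0.16 and *Spred2* between 0.0095 and 0.16. The sign of both turned with the marker index in the model, to -0.064 for *Spred1* and -0.036 for *Spred2*, and *Spred1* was at -0.022 on log2(TPM + 1), above the median of all genes there (-0.063). *Spred3*, the remaining Spred gene, had 7.07 TPM over all samples and a log2 fold change of -0.03, and *Spry3* was not analysed here.

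Whether *Dusp1* differed more than each of the other 9 genes was asked within each sample, from the log2 ratio of its normalized CPM to theirs. The difference of log2 changes was largest against *Dusp6* (1.29) and was 1.13 against *Dusp14*, 1.11 against *Spred1*, 1.09 against *Spry1* and 1.06 against *Spred2*. Against *Dusp5* it was 0.89, and against *Dusp4* and *Spry2* it was 0.88. In each of these 8 ratios the CNO samples lay above all vehicle samples (two-sided exact permutation test, p = 0.0286, Benjamini-Hochberg adjusted p = 0.0321 over the 9 ratios), with the smallest gap for *Dusp5* (2.99 against 2.97 on the log2 scale). In TPM the *Dusp5* ratio overlapped (p = 0.0571, exact permutation test). Against *Spry4* the difference was 0.38 and the groups overlapped (exact permutation p = 0.114), with vehicle replicate 1 at 2.15 and the other vehicle samples lower. The 9 ratios share *Dusp1*, which was picked with its difference known, and with 1 sample left out the smallest p the test allows is 0.0571.

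**Figure D4:**
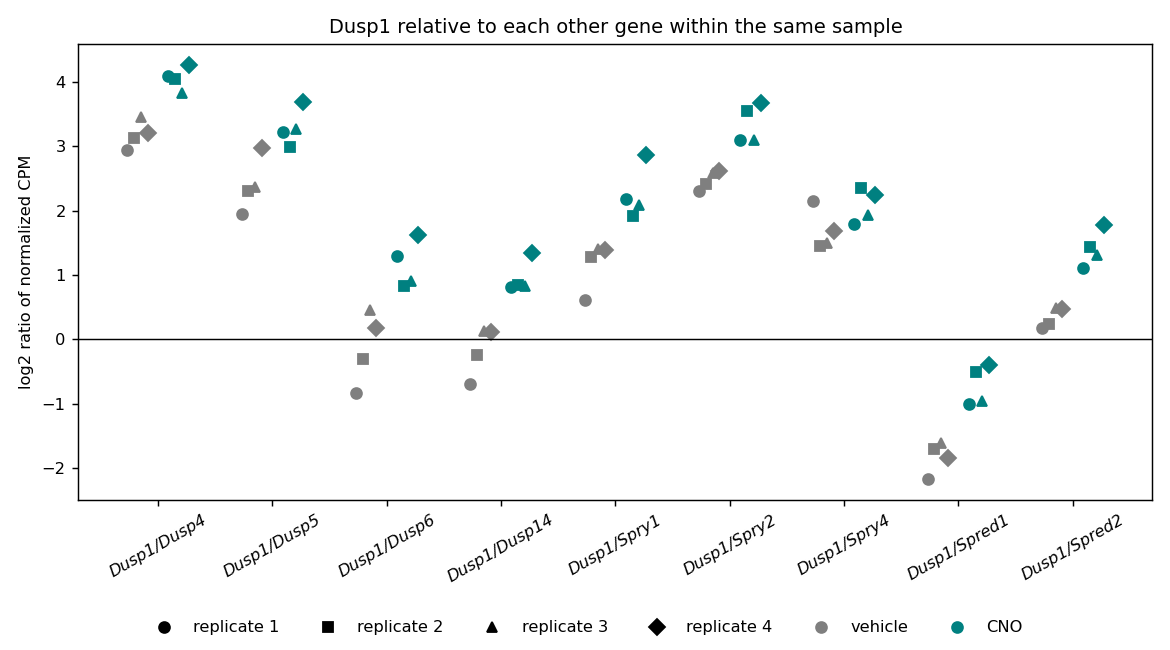
Log2 ratio of *Dusp1* to each of the other 9 genes in normalized CPM, in every vehicle (grey) and CNO (teal) sample, with the marker shape giving the replicate number. The ranges are separate in 8 ratios and overlap for *Spry4*, where vehicle replicate 1 lies at 2.15.

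Compared by length-corrected level in the vehicle samples, *Dusp14* was the most abundant at 94.98 ± 9.21 TPM (SD, n = 4) and *Dusp4* the least at 4.41 ± 0.286 TPM. Between them the order was *Spred1* (64.5 TPM), *Dusp1* (61.4 TPM), *Dusp6* (43.9 TPM), *Spred2* (26.1 TPM), *Spry1* (19.4 TPM), *Spry2* (9.74 TPM), *Dusp5* (8.66 TPM) and *Spry4* (7.60 TPM). The ranges over the 4 vehicle samples were separate between *Dusp14* and *Spred1*, between *Dusp6* and *Spred2*, between *Spred2* and *Spry1*, and between *Spry1* and *Spry2*. The remaining neighbours overlapped, so that *Spred1*, *Dusp1* and *Dusp6* cannot be ordered step by step, nor can *Spry2*, *Dusp5*, *Spry4* and *Dusp4*. With CNO the mean level of *Dusp1* was 128 ± 24.8 TPM (SD, n = 4), above the 92.1 ± 4.53 TPM of *Dusp14*.

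The rest of the pathway was read from 8 lists of other phosphatases, inhibitors, kinases and targets, in which 100 of 103 genes were tested. Of these 52 had a log2 fold change above 0 and 48 below, the median was 0.01, 4 (4%) had an unadjusted p under 0.05 and 0 were called. The share of 4% lies near the 4.09% of all genes tested. The count was 1 without CNO replicate 1 or CNO replicate 4, where 2.81% and 1.86% of all genes passed, 6 without CNO replicate 2 (9.63% of all), and 2 without vehicle replicate 1 and CNO replicate 4 (2% of all). Of the remaining 6 docking-domain MAP kinase phosphatases 3 lay above 0 and 3 below, with 0 at an unadjusted p under 0.05. *Dusp8*, which acts on JNK and p38, was at 157 TPM over all samples, above *Dusp1* with 94.5 TPM, and had a log2 fold change of 0.03. *Dusp7* was at 60.4 TPM with -0.10, *Dusp10* at 21.4 TPM with 0.25, *Dusp2* at 5.26 TPM with -0.0019, *Dusp16* at 2.93 TPM with -0.16 and *Dusp9* at 0.824 TPM with 0.32. Of 13 atypical DUSPs 11 were tested, 7 above 0 and 4 below, 0 at that threshold, and *Dusp26* was the most abundant at 212 TPM, followed by *Dusp28* (58.4 TPM) and *Dusp11* (57.8 TPM).

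The cascade that the inhibitors act on, from adaptors and Ras to ERK, had 15 of 26 genes above 0 and 11 below, with 0 at an unadjusted p under 0.05 and log2 fold changes from -0.28 to 0.17. Abundant genes of the cascade included the kinase gene *Araf* (453 TPM) and *Hras* (244 TPM). The JNK, p38 and ERK5 branches had 7 of 15 genes above 0 and 8 below, again 0 at the threshold, led by *Mapk10* (285 TPM), *Mapk9* (239 TPM) and *Map2k4* (199 TPM). Other inhibitors of ERK signalling had 7 of 15 above 0 and 8 below, 0 at the threshold, led by *Pebp1* (697 TPM), *Pea15a* (251 TPM) and *Lztr1* (144 TPM).

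Of 13 effectors downstream of ERK, 2 had an unadjusted p under 0.05. *Rps6ka6*, which encodes the kinase RSK4, had 1.38 ± 0.0663 TPM with CNO and 1.00 ± 0.183 TPM with vehicle (SD, n = 4), without overlap in normalized CPM and with a log2 fold change of 0.54 (adjusted p = 0.817 in edgeR). *Mknk2*, which encodes a kinase of the translation factor eIF4E, had a log2 fold change of 0.29 and overlapping groups. The most abundant effectors were *Mknk1* (38.2 TPM), *Rps6ka4* (36.5 TPM) and *Rps6ka2* (28.6 TPM). Of 13 transcripts known to respond to ERK, *Phlda1* was higher with CNO (90.2 ± 6.48 against 72.3 ± 14.5 TPM, log2 fold change 0.43, unadjusted p = 0.0278) and *Epha4* lower (28.6 ± 4.83 against 36.1 ± 3.70 TPM, log2 fold change -0.26, unadjusted p = 0.0251), each with an adjusted p of 0.817 in edgeR (SD, n = 4). For both, the groups overlapped in normalized CPM (exact permutation test, p = 0.0571 each). *Phlda1* was lowest in vehicle replicate 1, at 34.1 CPM, where the next vehicle sample had 51.6 CPM. Without overlap in normalized CPM were 3 of the 100 genes tested in these lists, near the 2.42% of all genes, namely *Rps6ka6* and 2 that were named after their values were seen. *Etv1*, a transcription factor gene of the ERK-responsive list, was lower in every CNO sample (log2 fold change -0.15) and *Errfi1*, which encodes an inhibitor of the EGF receptor, was higher in every CNO sample (0.17), each with an adjusted p of 0.817 in edgeR. For *Errfi1* the gap was small, from 26.7 CPM in vehicle replicate 2 to 27.2 CPM in CNO replicate 2. In TPM it had 25.8 ± 1.61 with CNO and 25.2 ± 2.16 with vehicle (SD, n = 4). The other 11 ERK-responsive transcripts did not pass, among them *Egr1* at 184 TPM with a log2 fold change of 0.07 and *Etv5* at 43.9 TPM with 0.01.

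A list of 7 immediate early genes was read for comparison. It was chosen with earlier results of these data known, so it is not an independent measure of raised activity. The 7 had log2 fold changes above 0, 4 of them at an unadjusted p under 0.05 in edgeR. These were *Fos* (1.93), *Fosb* (1.88), *Fosl2* (0.69) and *Nr4a1* (0.68), whereas *Arc* (0.66), *Junb* (0.28) and *Npas4* (0.15) did not pass. Further immediate early genes were listed with the ERK-responsive transcripts instead. Of these, *Egr1* (0.07), *Egr2* (-0.0023), *Egr3* (-0.19), *Fosl1* (-0.14), *Myc* (0.30) and *Ier3* (0.07) did not pass either, the last 5 of them named after their values were seen. The estimate for *Dusp1* (1.17) lay between those of *Fosb* and *Fosl2*, and that for *Spry4* (0.71) was near that of *Fosl2*. The genes whose log2 CPM followed that of *Dusp1* most closely over the 8 samples, among 15172 others with a mean TPM above 1, were *Fam150b* (Pearson r = 0.991), *Th* (0.979), *Mustn1* (0.963), *Gm7008* (0.959) and *Fosb* (0.956). Among the other 9 feedback genes, r was highest for *Dusp4* (0.884, rank 63), *Spry4* (0.872, rank 85) and *Spry2* (0.790, rank 422) and lowest for *Dusp6* (-0.422). These values describe 8 samples that share the group difference and the position of vehicle replicate 1, and they carry no test.

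**Figure D5:**
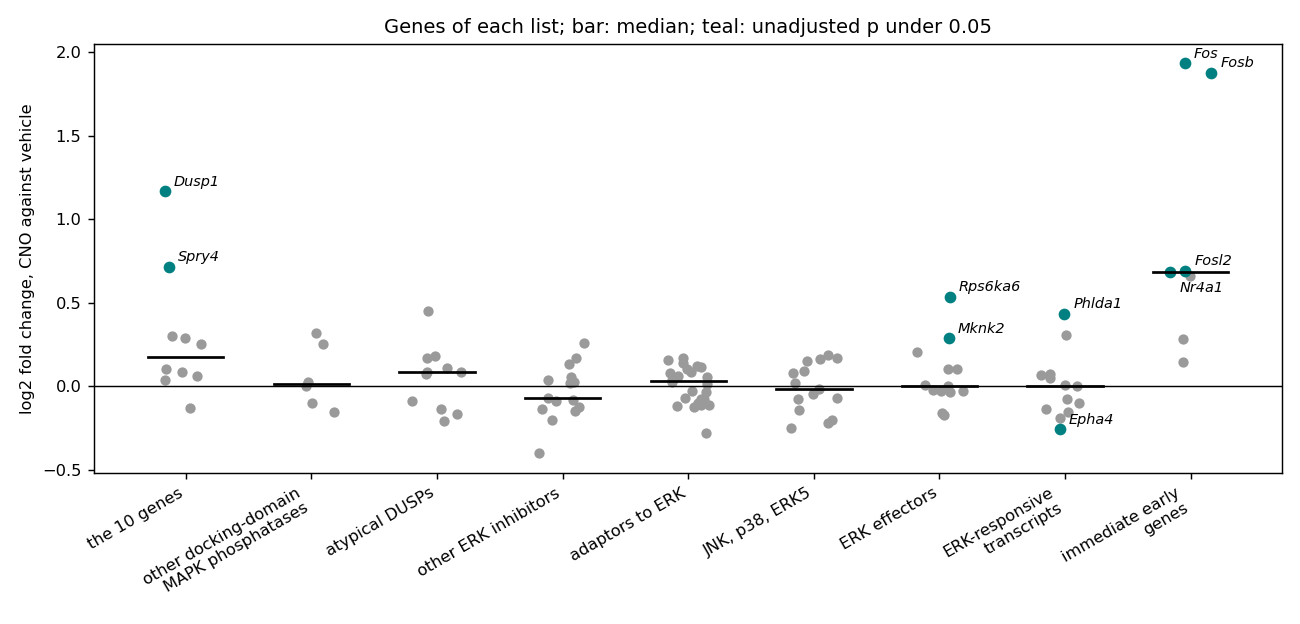
Log2 fold change, CNO against vehicle, of the tested genes of the 9 pathway and immediate early gene lists plotted (points), with the median as a bar and an unadjusted p under 0.05 in teal. The 10 feedback genes have a median of 0.18 and the 7 genes listed as immediate early genes one of 0.68, whereas the medians of the other 7 lists plotted lie between -0.07 and 0.08. The immediate early gene list was chosen with earlier results known, and further such genes are plotted with the ERK-responsive transcripts.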

How the data were processed

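Ribosome-associated RNA of 4 CNO and 4 vehicle samples was sequenced from libraries made with a kit that does not keep strand. The labels name FastQC, Trim Galore, STAR and Salmon and the build GRCm38; the strand setting is not given in the sources used here. The authors deposited estimated counts per gene, without normalization or a filter, and TPM, in which the authors corrected the counts for transcript length and library total. Column names matched the sample labels, and no column was left unassigned. Estimated counts were rounded, and a gene was left out where 4 or more samples had under 10 counts. The rest were scaled by TMM and tested with edgeR 4.0.16 (quasi-likelihood test, Benjamini-Hochberg adjustment over all tested genes) in R 4.3.3. For edgeR fits, the standard error was derived as the absolute log2 fold change divided by the square root of the test statistic. Intervals of the quasi-likelihood fit used that error and the t distribution. Calls required a TPM over 1 on average, a fold change over 1.5 and an adjusted p under 0.05. The study names edgeR's robust dispersion in its methods and a Wald test in a figure legend, which edgeR does not offer, so the likelihood ratio test on that dispersion and DESeq2 1.42.0 with its Wald test were alternatives, with other scalings, filters, limma 3.58.1 on log2 TPM (1 or 0.1 added), 1 surrogate variable (sva 3.50.0), the marker index, blocks and the omission of each sample. Leaving out vehicle replicate 1 and CNO replicate 4 together was added after seeing the data. Log2 values of single samples used a prior count of 2. Exact permutation tests were two-sided, over the 70 ways to assign 4 samples to each group (scipy 1.17.1). The fits were tested on simulated data, and the outcome is not reported here.

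The genes and lists were chosen with earlier results of these data known. Genes named are all 10 feedback genes, the remaining docking-domain phosphatases, *Spry3* and *Spred3*, immediate early genes, the most abundant markers, the 5 genes most like *Dusp1*, and, of each other list, those with an unadjusted p under 0.05 and the 3 with the highest mean TPM. Some genes that this rule names are not reported here. Positions and shared 31-nucleotide stretches are from GENCODE mouse release M21 on GRCm38. Same-numbered samples deviated together with correlations of 0.026, -0.030, 0.16 and 0.24, so the replicate numbers were not taken to pair samples.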

Additional observations from a re-analysis of the deposited data

Results flagged for a closer look

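The sample at either end of a group was compared with the sample next to it, as the ratio of their gap to the spread of all 4, and ratios above Dixon's 95% critical value are listed. Of 40 groups over 20 measures (the 10 genes, 8 marker sums, total counts and the marker index), 5 passed, where chance gives about 2. *Dusp1* was far higher in CNO replicate 4 than in CNO replicates 1 to 3 (ratio 0.881; log2 CPM 7.16, next 6.59). Vehicle replicate 1 was below the other vehicle samples in *Dusp4* (0.941; log2 CPM 2.15, next 2.41). It was also below them in the summed PV+ interneuron markers (0.913; log2 TPM 10.2, next 11.5). CNO replicate 2 was below the other CNO samples in *Spry2* (0.859; log2 CPM 3.05, next 3.42) and in *Spred1* (0.885; log2 CPM 7.10, next 7.51). The part of sample composition in these values was not tested.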

How the results depend on the processing

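The direction of *Dusp1* was kept under all 21 alternatives, with an adjusted p from 2.62e-07 to 0.775, and *Dusp4*, *Dusp5*, *Spry2* and *Spry4* also kept theirs. For *Dusp1*, whose groups were separate, leaving samples out is a weak check of direction. *Dusp1* passed an adjusted p of 0.05 with robust dispersion (1.05), DESeq2 (1.18), no filter on low counts (1.18) and 1 surrogate variable (0.93), and these are the settings in which 1 of the 10 genes was called. With a sample left out, *Dusp1* lay between 0.99 and 1.28 and 0 of the 10 were called. Genes called in all numbered 12 with robust dispersion, 10 with DESeq2, 4 without a filter, 3 with 1 surrogate variable, 3 with replicates 1 and 2 against 3 and 4 as a block, 1 at an adjusted p under 0.1, and 0 to 2 with a sample left out (2 without CNO replicate 1). With a replicate block the count of calls was 0, *Dusp1* was 1.17 (adjusted p = 0.448) and 765 genes had an unadjusted p under 0.05; the block changed no call. Of the 10 genes, 4 had an unadjusted p under 0.05 in DESeq2 (4.77% of all genes) and 2 to 4 with a sample left out (4 without vehicle replicate 3, 5% of all). Those without overlap numbered 1 to 4 (4 without CNO replicate 2, 3 without vehicle replicate 3 and 2 without CNO replicate 1, where 13.5%, 5.17% and 3.98% of all tested genes were without overlap, against 2.42% with every sample). The *Dusp1* ratios under an adjusted p of 0.05 fell from 8 to 0 with any sample left out, which the smaller number of assignments fixes, and were 7 in TPM. Pathway list genes at an unadjusted p under 0.05 numbered 1 to 6 with a sample left out (6 without CNO replicate 2, 1 without CNO replicate 1 or 4, where 9.63%, 2.81% and 1.86% of all genes passed) and 2 without vehicle replicate 1 and CNO replicate 4 (2% of all). *Dusp5* was lowest without vehicle replicate 4 (0.12) and highest without vehicle replicate 3 (0.39), *Dusp6* ranged from -0.21 (without vehicle replicate 3) to -0.036 (without CNO replicate 1) and *Spry1* from 0.00058 (without CNO replicate 2) to 0.13 (without CNO replicate 4). Signs turned for *Dusp6* (0.015 with 1 surrogate variable, 0.032 with the marker index) and *Dusp14* (-0.020 with library size, -0.041 with 1 and -0.041 with 0.1 added to TPM, -0.024 to 0.057 with a sample left out). They also turned for *Spry1* (-0.0032 and -0.0038 on log2 TPM), *Spred1* (-0.022 and -0.022 on log2 TPM, -0.072 with the surrogate variable, -0.064 with the index, -0.029 without vehicle replicate 1 and CNO replicate 4) and *Spred2* (-0.013, -0.036 and -0.019 under the last 3 of these); with a sample left out *Spred1* lay between 0.0062 and 0.16 and *Spred2* between 0.0095 and 0.16. The medians of all genes were -0.051 with library size and -0.063 and -0.077 on log2 TPM, and the genes that turned in these settings lay above them. The causes of the other turns were not tested. The lowest depth was that of *Dusp4*, at 196 to 351 counts per sample.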
